A study of Caenorhabditis elegans with 52 samples.

Results

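Double mutants of Caenorhabditis elegans in disl-2 and pup-1 were compared with each other across all piRNAs. One double mutant, disl-2(how27); pup-1(how20), is called the how27 double here, and the other, disl-2(tm5337); pup-1(how50), the tm5337 double. Each had 2 small RNA libraries, so 4 of the 52 samples of the series were compared, chosen by the genotype in their labels. The deposited piRNA table listed 14581 piRNAs for these libraries, and 5120 of them had enough reads to be tested. The question is whether these double mutants, which differ in their disl-2 allele and in their pup-1 allele, differ in piRNA levels.

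piRNAs are small RNAs of the germline that guide the Piwi protein PRG-1 and help silence foreign and unwanted transcripts. In this worm most are transcribed as separate short units in clusters on chromosome IV, then trimmed and methylated at the 3′ end. PUP-1 is a poly(U) polymerase, an enzyme that adds uridines to RNA 3′ ends. DISL-2 is the worm homolog of DIS3L2, a 3′ to 5′ exonuclease known in other species to degrade uridylated RNA.

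The series followed piRNA levels in disl-2 mutants alone, in disl-2 mutants combined with mutations in henn-1, parn-1 or pup-1, and after depletion of TOFU-5. All libraries used here came from whole animals grown at 20 °C and collected as day 1 adults about 64 h after larvae were plated. The comparison groups were the single mutants disl-2(how27) and disl-2(tm5337) with their isogenic control, and pup-1(tm1021) with its paired control, each with 2 libraries and no treatment. Both disl-2 and pup-1 lie on chromosome III per the labels. The labels do not describe the lesion of any allele. The doubles differ in their disl-2 allele and also in their pup-1 allele, how20 against how50, so the effects of the alleles of either gene cannot be told apart between them. Neither pup-1 allele of the doubles is the one in the single mutant. The table holds piRNAs only, so neither the mRNAs of disl-2 and pup-1 nor markers of the germline could be checked in these libraries.

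Depth was 22383793 and 21687240 reads in the how27 double and 23400913 and 19002714 reads in the tm5337 double. A piRNA listed at 0 can hold up to 3 reads, which is 0.128 to 0.158 RPM (the authors' unit, reads scaled to the depth of each library) over these 4 libraries and covers counting error only. Between 4305 and 4843 piRNAs per double mutant library stood at 1 RPM or more. No piRNA was at 0 RPM in both libraries of one double and at 1 RPM or more in both of the other, in either direction (0 piRNAs each).

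The libraries of the how27 double stood apart from each other. Across the 5120 tested piRNAs, their log2 levels correlated at Pearson r = 0.944, against 0.977 for the tm5337 double and 0.978 to 0.985 for the libraries of the disl-2 singles. Each how27 double library correlated better with both tm5337 double libraries than with its own replicate. Replicate 1 correlated at 0.950 and 0.956 with them, and replicate 2 at 0.974 and 0.957. The SD of the log2 difference between replicates was 0.587 in the how27 double and 0.370 in the tm5337 double. More than a 2-fold difference between replicates was seen for 416 piRNAs in the how27 double, for 157 in the tm5337 double, for 23 in the how27 single and for 202 in the tm5337 single. These correlations run across piRNAs of the same libraries and are descriptions without a test.

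Between the singles, by contrast, the correlation was only 0.859 to 0.881. The isogenic control and the pup-1 paired control correlated about as little with each other, at 0.877 to 0.888. The double libraries correlated at 0.888 to 0.948 with the how27 single and at 0.823 to 0.890 with the tm5337 single. With the isogenic control they correlated at 0.894 to 0.947, so their closeness to the how27 single was not specific to it. With the pup-1 paired control they correlated at only 0.751 to 0.825. The how27 single itself was close to the isogenic control, with a lowest correlation of 0.961. The tm5337 single was further from that control, at 0.867 to 0.886. The tm5337 single correlated at 0.896 to 0.932 with pup-1(tm1021). No double library reached that value with a tm5337 single library.

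**Figure D1:**
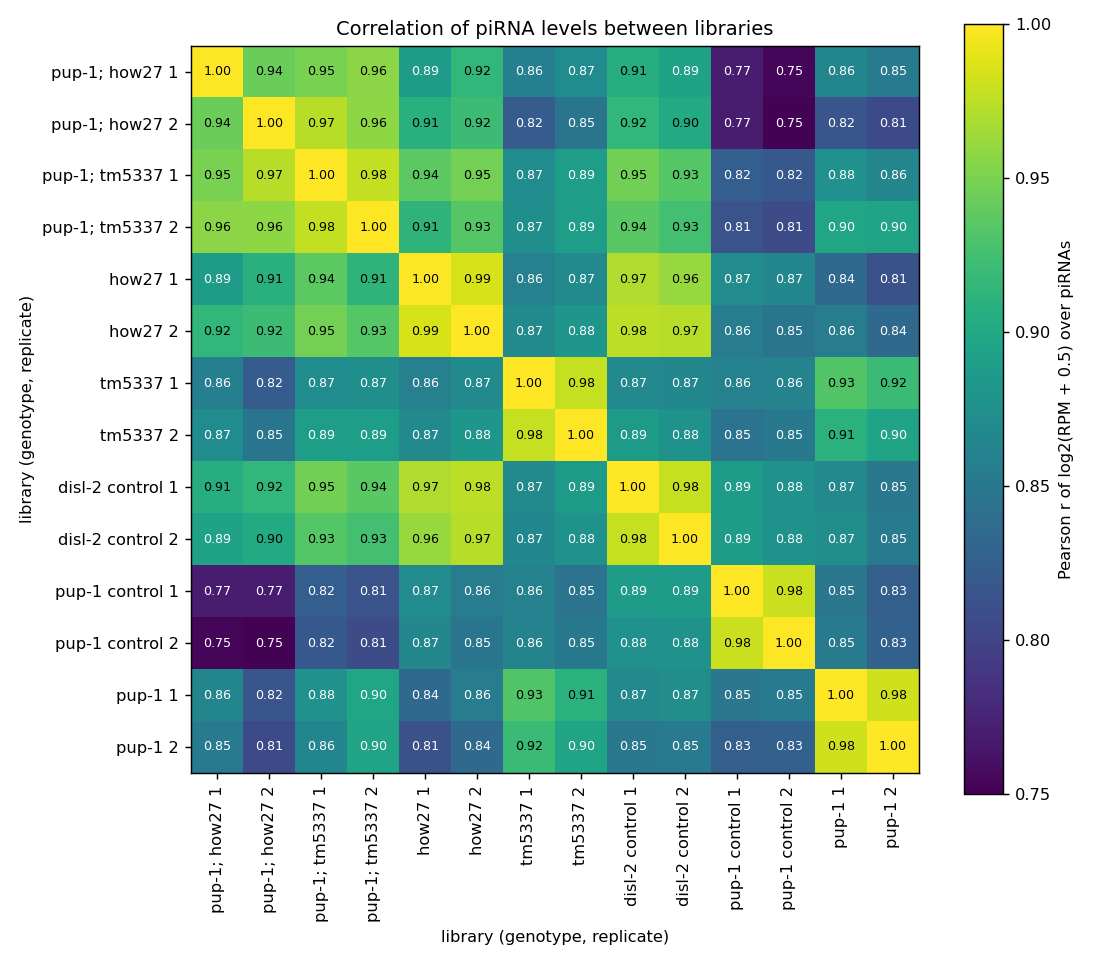
Pearson correlation of log2(RPM + 0.5) between 14 libraries over 5120 piRNAs, with genotype and replicate on both axes. Rows and columns labelled "pup-1; how27" and "pup-1; tm5337" are the double mutants. The 4 double mutant libraries form a block at 0.944 to 0.977, while the how27 and tm5337 singles stand at 0.859 to 0.881 with each other. The isogenic control and the pup-1 paired control stand at 0.877 to 0.888 with each other.

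Total piRNA level did not separate the doubles. It was 66833 and 64307 RPM in the how27 double and 75567 and 60589 RPM in the tm5337 double. Both how27 values lay between the tm5337 values. The means were 65570 ± 1786 RPM (SD, n = 2) and 68078 ± 10591 RPM (SD, n = 2), a ratio of 1.04 (log2 0.05 ± 0.16 SE). The two-sided exact permutation p was 1, and 0.333 is the smallest that 2 against 2 allows. Without replicate 1 of the tm5337 double the log2 ratio was -0.11. Between the singles the total was 108722 and 97312 RPM with how27 and 68032 and 56978 RPM with tm5337. Those groups did not overlap, with a ratio of 0.607 (log2 -0.72 ± 0.15 SE, exact permutation p = 0.333). Such totals are scaled to the depth of each library, so they are relative and not absolute levels. In whole animals, fewer germ cells and fewer piRNAs per germ cell cannot be told apart in them.

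Few single piRNAs were called between the doubles. All differences below are tm5337 minus how27 on the log2(RPM + 0.5) scale, tested with limma and adjusted by the Benjamini-Hochberg method, with a call at an adjusted p under 0.05. Of 5120 piRNAs, 2 were higher in the tm5337 double (0.0391%) and 0 were higher in the how27 double (0%). By limma voom on estimated reads the counts were also 2 and 0. An unadjusted p under 0.05 was found for 411 piRNAs (8.03%). Of these, 321 were higher in the tm5337 double (6.27%) and 90 in the how27 double (1.76%). With only the 4 double mutant libraries in the fit, it was found for 202 of 4606, a share below the threshold of 0.05 itself. The libraries of the 2 groups did not overlap for 1702 piRNAs (33.2%). The tm5337 double was above for 1103 (21.5%) and the how27 double for 599 (11.7%). Random order of 2 against 2 libraries gives no overlap at a rate of 0.333, close to the share seen here. Lack of overlap alone therefore says little about any piRNA named below.

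The size of the differences was small. Their median was 0.08 and their SD 0.36, and the middle 95% ran from -0.59 to 0.79. The median was -0.07 without replicate 1 of the tm5337 double and 0.23 without its replicate 2. More than a 2-fold difference was estimated for 32 piRNAs (0.625%). The 95% interval of the difference lay wholly within 2-fold for 3500 piRNAs (68.4%), and its median half-width was 0.63. For the other 1620 piRNAs the interval reached past 2-fold, and for 1 of them it lay wholly beyond. These intervals pool error over all groups of the fit, whose replicate differences had SDs of 0.296 to 0.587. The how27 double had the widest, so the intervals may be too narrow for this contrast. The SD of the differences between the doubles, 0.36, was below the 0.587 between the how27 double's own replicates, although a difference of means averages over replicates and the replicate difference does not.

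The number of calls changed most when a library of the how27 double was left out. That double is then 1 library, assumed to vary like the other groups, and its own spread, the widest, leaves the estimate of error. Without its replicate 2, 153 piRNAs were higher in the tm5337 double and 25 in the how27 double. Without its replicate 1, the counts were 17 and 14. Only 2 piRNAs were called in both of these fits, which is 6.45% of the 31 called without replicate 1 and 1.12% of the 178 called without replicate 2. Leaving out any of the other 6 libraries of the fit gave 0 calls in both directions.

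The single mutants with the same disl-2 alleles, whose labels name no pup-1 mutation, differed widely from each other. Differences between these strains other than the disl-2 allele were not tested. Of 5618 piRNAs tested between the singles, 2836 were lower in tm5337 (50.5%) and 269 were higher (4.79%), 3105 in all (55.3%). The libraries of the singles did not overlap for 4178 piRNAs (74.4%). The singles and the doubles share no library. Over the 5023 piRNAs tested in both comparisons, the SD of the differences was 0.81 between the singles and 0.36 between the doubles. More than a 2-fold difference was estimated for 1830 of these piRNAs between the singles and for 32 between the doubles. The median half-width of the 95% interval was 0.60 over the piRNAs tested between the singles and 0.63 between the doubles. Replicate differences had SDs of 0.288 and 0.336 in the singles, against 0.587 and 0.370 in the doubles. The comparison of the doubles may therefore be less precise than its half-width shows. The differences of the 2 comparisons correlated at Pearson r = 0.07 and Spearman rho = 0.09 across these piRNAs, which are not independent replicates.

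**Figure D2:**
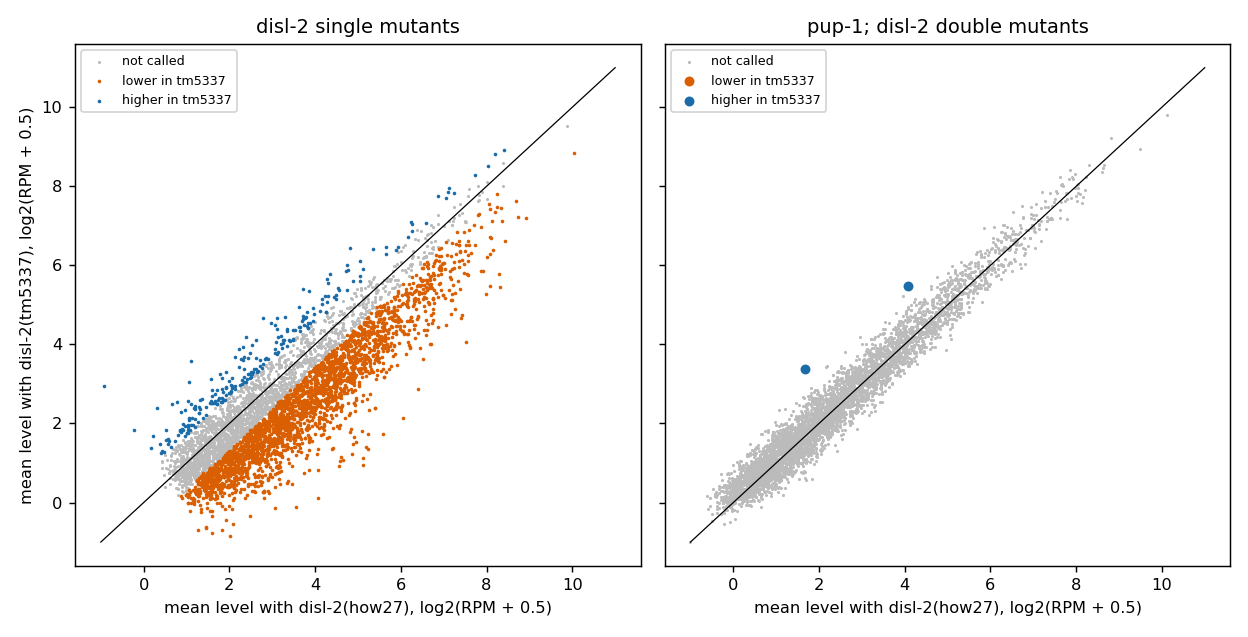
Mean level of each of 5023 piRNAs with the how27 allele (horizontal) and with the tm5337 allele (vertical), both as log2(RPM + 0.5), for the single mutants (left) and the double mutants (right). The diagonal marks equal levels, and colours mark piRNAs called by limma at an adjusted p under 0.05. Orange points, lower in tm5337, spread below the diagonal in the singles (2636 of those shown), while 2 piRNAs are coloured in the doubles.

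**Figure D3:**
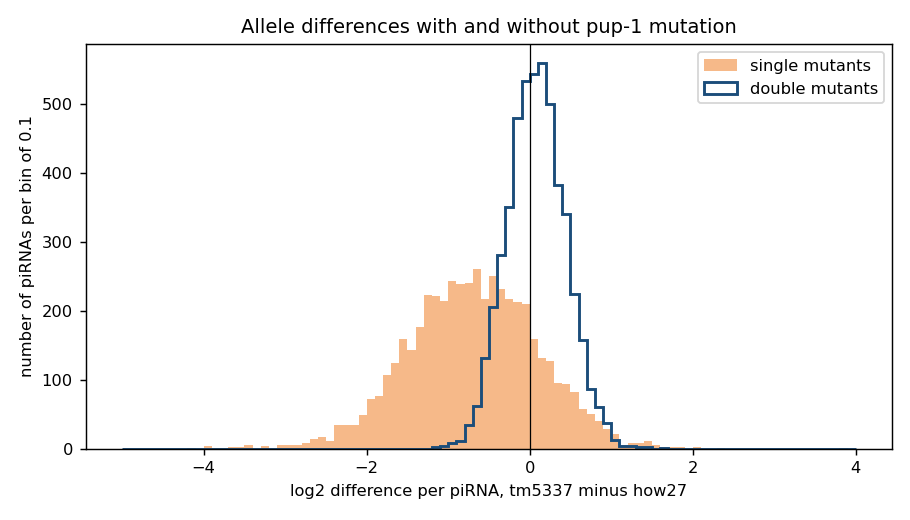
Number of piRNAs by log2 difference, tm5337 minus how27, in bins of 0.1, for the 5023 piRNAs tested in both comparisons. The differences between the single mutants (filled) are centred on -0.69 with an SD of 0.81, and those between the double mutants (line) on 0.08 with an SD of 0.36.

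The difference between the 2 comparisons was tested in 1 fit of 14 libraries. Of 5369 piRNAs, 2008 had a more positive tm5337-minus-how27 difference in the doubles than in the singles (37.4%), and 79 a more negative one (1.47%). Either way 2087 were called (38.9%). The median of this difference of differences was 0.75. After rescaling every library to equal medians, which moved that median to 0.02, 683 were more positive and 567 more negative. With the same rescaling, 1458 piRNAs were lower and 1364 higher in tm5337 between the singles, and 0 were called between the doubles. The doubles and the singles carry different control groups in the labels, and differences between the 2 sets of libraries other than genotype were not tested.

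The called piRNAs were 21ur-5515 and 21ur-6320, both from cluster b of chromosome IV. 21ur-5515 is an Oogenic piRNA in the authors' classes and lies inside an annotated coding gene. It stood at 2.28 and 3.14 RPM in the how27 double and at 11.1 and 8.53 RPM in the tm5337 double. The groups did not overlap, and both how27 double libraries lay below every library of the other groups used here. The ratio was 3.63 (log2 1.69 ± 0.31 SE, 95% interval 1.05 to 2.32, adjusted p = 0.0398). Between the singles the order was the opposite, with 23.7 and 14.8 RPM in how27 and 11.5 and 8.06 RPM in tm5337 (log2 -0.92, adjusted p = 0.00266). The difference of differences was 2.61 (adjusted p = 3.8e-05).

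21ur-6320 is in neither the Oogenic nor the Spermatogenic class and lies outside coding genes. It stood at 12.1 and 20.8 RPM in the how27 double and at 47.4 and 41.4 RPM in the tm5337 double. Here too the how27 double was the lowest of all groups, below the 40.7 and 40.8 RPM of the how27 single. The ratio was 2.70 (log2 1.45 ± 0.28 SE, 95% interval 0.87 to 2.03, adjusted p = 0.0464). Between the singles, tm5337 stood at 57.3 and 46.3 RPM and no difference was called (log2 0.34, adjusted p = 0.194). The difference of differences was 1.11 (adjusted p = 0.0162). Both calls were near the threshold and depended on the settings. Over 19 alternatives, 21ur-5515 was called in 7 (adjusted p from 2.5e-05 to 0.840) and 21ur-6320 in 5 (adjusted p from 4.8e-06 to 0.840). The estimated difference stayed positive in all of them, at 1.33 or more for 21ur-5515 and 1.07 or more for 21ur-6320.

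None of the 5 most abundant piRNAs of the doubles was called, and the libraries overlapped for all but 1 of them. 21ur-3730 was at 1265 and 974 RPM in the how27 double and at 1014 and 788 RPM in the tm5337 double (log2 -0.31, 95% interval -0.82 to 0.20, adjusted p = 0.75). 21ur-2446 was at 394 and 506 RPM against 697 and 499 RPM (log2 0.40, 95% interval -0.12 to 0.92, adjusted p = 0.679). In both cases the groups overlapped. Between the singles, 21ur-2446 fell from 1102 and 1000 RPM in how27 to 500 and 416 RPM in tm5337 (log2 -1.20, adjusted p = 1.3e-08), and its difference of differences was 1.6 (adjusted p = 0.000309).

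The one without overlap was 21ur-3375, whose value is uncertain because it shares reads with other loci. It was at 920 and 516 RPM in the how27 double and at 501 and 478 RPM in the tm5337 double (log2 -0.49, adjusted p = 0.647). The groups did not overlap, but how27 replicate 2 lay far closer to the tm5337 double than to its own replicate. The Spermatogenic piRNA 21ur-3775 was at 418 and 382 RPM against 385 and 353 RPM (log2 -0.11, adjusted p = 0.935). 21ur-3442 was at 376 and 417 RPM against 390 and 319 RPM (log2 -0.17, adjusted p = 0.901). 21ur-1, widely used as a reference piRNA in this worm, was at 4.69 and 4.66 RPM against 5.68 and 5.16 RPM (log2 0.19, 95% interval -0.39 to 0.78, adjusted p = 0.899), without overlap. It stood at 24.6 and 25.0 RPM in the pup-1 paired control, at 7.12 and 10.2 RPM in the isogenic control and at 5.49 and 5.02 RPM in pup-1(tm1021).

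The piRNAs that set the singles apart were followed in the doubles. Of the 2836 piRNAs lower in the tm5337 single than in the how27 single, 2636 were tested between the doubles. Their median difference was -1.20 between the singles, which chose them, and 0.04 between the doubles, against 0.08 over all 5120 tested. Without 1 library of the fit the latter median ran from -0.14 to 0.23, both ends set by a tm5337 double library. Between the doubles 1 of them was called higher in tm5337 and 0 lower, and the interval lay within 2-fold for 1827 (69.3%). Both are near the background of 0.0391% called and 68.4% within 2-fold over all tested piRNAs. Their median level was 11.9 RPM in the how27 single and 4.44 RPM in the tm5337 single, but 5.25 RPM in the how27 double and 5.64 RPM in the tm5337 double.

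Among these piRNAs, 240 were over 4-fold lower in the tm5337 single. Their median difference was -2.30 between the singles and -0.01 between the doubles, where 0 were called either way and 161 (67.1%) had an interval within 2-fold, again near the background. Without 1 library of the fit the median between the doubles ran from -0.21 to 0.24. At the median they stood at 17.6 RPM in the how27 single, 2.59 RPM in the tm5337 single and 2.5 RPM in pup-1(tm1021). In the doubles the medians were 6.98 RPM with how27 and 7.93 RPM with tm5337, between those low groups and the 10.5 RPM of the isogenic control.

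The Oogenic piRNA 21ur-8605 shows this pattern. It stood at 41.9 and 26.5 RPM in the how27 single, at 1.82 and 1.03 RPM in the tm5337 single and at 3.02 and 2.61 RPM in pup-1(tm1021). In the doubles it was at 12.1 and 14 RPM with how27 and at 19.4 and 13.1 RPM with tm5337. These overlap (log2 0.28, 95% interval -0.31 to 0.88, adjusted p = 0.825), and the difference of differences was 4.45 (adjusted p = 1.3e-08).

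21ur-1120, which is in neither class, stood at 35.3 and 36.9 RPM in the how27 single, at 2.36 and 1.97 RPM in the tm5337 single and at 6.58 and 4.09 RPM in pup-1(tm1021). In the doubles it was at 9.16 and 19.6 RPM with how27 and at 25.2 and 18.6 RPM with tm5337. Replicate 1 of the how27 double was the low value, and replicate 2 lay within the tm5337 double. The difference was 0.67 (adjusted p = 0.619) between the doubles and -3.78 between the singles.

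The Spermatogenic piRNA 21ur-7404 was scarcest. It stood at 0.575 and 0.576 RPM in the tm5337 single and at 0.218 and 0.547 RPM in pup-1(tm1021), against 19.5 and 13.3 RPM in the how27 single. In the doubles it was at 5.45 and 7.15 RPM with how27 and at 8.72 and 5.32 RPM with tm5337 (log2 0.12, 95% interval -0.53 to 0.77, adjusted p = 0.949). The Spermatogenic 21ur-6591 from cluster a stood at 39.6 and 28.9 RPM in the how27 single and at 1.82 and 1.55 RPM in the tm5337 single. It was at 11.7 and 11.9 RPM in the how27 double and at 11.6 and 6.16 RPM in the tm5337 double (log2 -0.46, adjusted p = 0.721). For 21ur-7404 all 4 double mutant libraries were above every tm5337 single and pup-1(tm1021) library, and the same held for 21ur-6591.

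The Spermatogenic piRNAs 21ur-4151 and 21ur-9174 had differences of -3.94 and -3.89 between the singles and -0.19 and -0.21 between the doubles. The doubles overlapped for both. 21ur-5876 had -3.93 and 0.26, with overlapping doubles, and is uncertain because it shares reads. The Oogenic 21ur-3676 differed from these in that its doubles did not overlap, at 2.19 and 3.83 RPM with how27 and at 8.29 and 5.68 RPM with tm5337. Its difference between the doubles was 1.11 (95% interval 0.47 to 1.75, adjusted p = 0.394), opposite in sign to the -3.25 between the singles, and the difference of differences was 4.36.

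The 269 piRNAs higher in the tm5337 single had close median levels in the doubles too. Of these, 234 were tested between the doubles, with a median difference of 0.86 between the singles and 0.10 between the doubles, and 0 were called in the doubles in either direction. Their median levels were 3.73 RPM in the how27 double and 4.00 RPM in the tm5337 double, against 4.84 RPM in the how27 single and 9.71 RPM in the tm5337 single.

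21ur-3787 stood at 93.2 and 80.1 RPM in the tm5337 single and at 27.4 and 28.1 RPM in the how27 single (log2 1.62). In the doubles it was at 56.3 and 40.9 RPM with how27 and at 38.8 and 44.8 RPM with tm5337 (log2 -0.20, adjusted p = 0.887). The Oogenic 21ur-4894 was at 14.6 and 21 RPM in the tm5337 single and at 6.11 and 3.31 RPM in the how27 single. It was at 2.68 and 1.38 RPM in the how27 double and at 2.44 and 1.16 RPM in the tm5337 double (log2 -0.15, adjusted p = 0.937). For both piRNAs the doubles overlapped and lay below the tm5337 single.

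The Oogenic 21ur-2194 shows how the spread of the how27 double limits the comparison. It was at 11 and 2.67 RPM there, on both sides of the 5.43 and 5.26 RPM of the tm5337 double (log2 -0.05, 95% interval -0.82 to 0.72). The tm5337 single stood at 24.8 and 25.0 RPM. 21ur-2400 was likewise at 5.09 and 0.784 RPM in the how27 double and at 1.97 and 3.10 RPM in the tm5337 double. 21ur-4985 was at 14.6 and 9.04 RPM against 8.08 and 12.8 RPM. In each of the 3 the doubles overlapped.

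The Spermatogenic 21ur-9190 was higher in the tm5337 single, at 16.3 and 6.58 RPM against 1.97 and 1.36 RPM (log2 2.35), and leaned the other way in the doubles. It stood at 3.66 and 5.76 RPM in the how27 double and at 2.18 and 2.26 RPM in the tm5337 double (log2 -0.91, adjusted p = 0.545). These did not overlap, and the difference of differences was -3.25 (adjusted p = 0.000126). For 21ur-375, at 8.98 and 5.58 RPM against 4.96 and 4.84 RPM in the doubles (log2 -0.49, adjusted p = 0.679), it was -2.07.

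**Figure D4:**
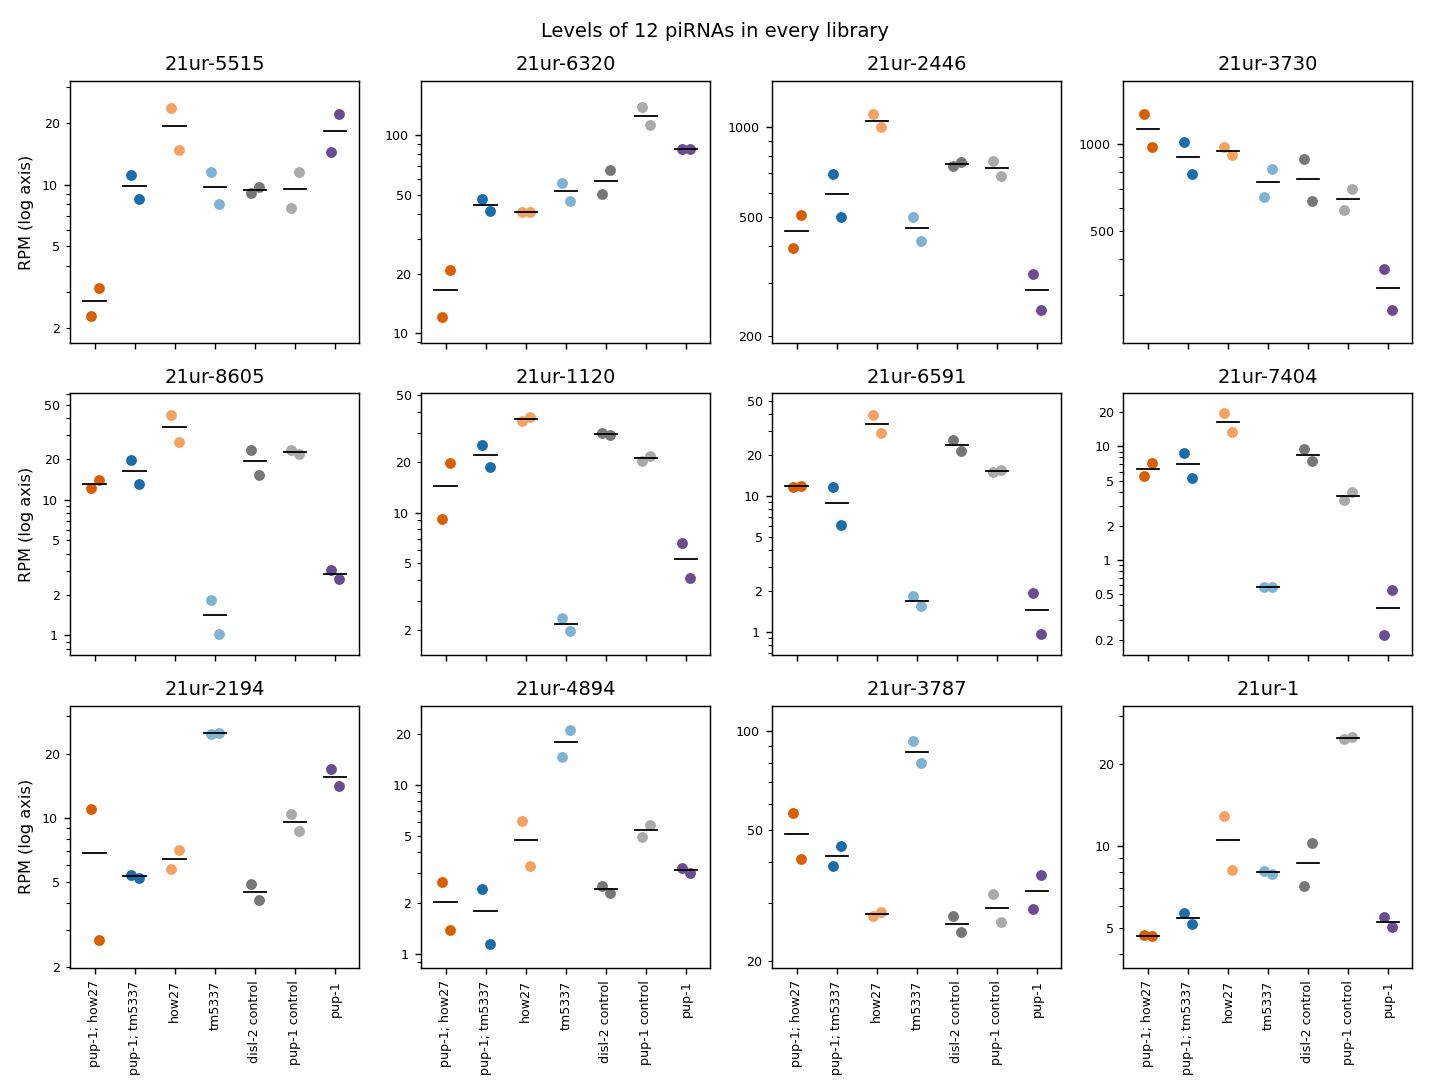
Level of 12 piRNAs in RPM (log axis) in 14 libraries, grouped by genotype, with "pup-1; how27" and "pup-1; tm5337" for the double mutants. Points are libraries and bars are means of 2. In the top row 21ur-5515 and 21ur-6320 are lowest in the how27 double, and in the middle row all 4 double mutant libraries lie above the tm5337 single and pup-1(tm1021).

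The authors' classes leaned apart in the doubles, although nearly no single member was called. Of 1744 Oogenic piRNAs, 1003 were tested, with a median difference of 0.28 and 82.9% above 0, against a median of 0.08 and 58.2% over all 5120. Of 3806 Spermatogenic piRNAs, 1677 were tested, with a median of -0.16 and 27.7% above 0. The 2440 tested piRNAs of neither class had a median of 0.15. Called in the tm5337 direction were 1 Oogenic, 0 Spermatogenic and 1 other, and 0 were called in the how27 direction. At an unadjusted p under 0.05, 117 Oogenic piRNAs (11.7%) were higher in the tm5337 double and 2 (0.199%) in the how27 double. Among Spermatogenic piRNAs the counts were 12 (0.716%) and 74 (4.41%), against 6.27% and 1.76% over all tested piRNAs. After rescaling to equal medians the Oogenic median was 0.22 and the Spermatogenic median -0.21. Without 1 library of the fit the Oogenic median ran from 0.13 to 0.43 and the Spermatogenic one from -0.33 to 0.01, where the median over all tested piRNAs ran from -0.07 to 0.23. The ends were again set by the tm5337 double libraries, and in each of those fits the Oogenic median lay above that of all tested piRNAs and the Spermatogenic one below it.

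The summed levels of the classes showed the same lean in every library. Oogenic piRNAs made up 20.9% and 20.0% of all piRNA reads in the how27 double and 23.4% and 23.9% in the tm5337 double. Spermatogenic piRNAs made up 30.2% and 30.6% in the how27 double and 25.7% and 24.1% in the tm5337 double. The ratio of Oogenic to Spermatogenic piRNA was 0.690 and 0.655 in the how27 double and 0.910 and 0.992 in the tm5337 double, without overlap. Between the singles it was 0.877 and 0.828 with how27 and 1.14 and 1.29 with tm5337, so tm5337 was higher in both backgrounds. In the isogenic control the ratio was 1.11 and 1.04, in pup-1(tm1021) 1.42 and 1.41, and in the pup-1 paired control 1.65 and 1.98. The 2 control groups therefore differed from each other by more than the doubles did.

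**Figure D5:**
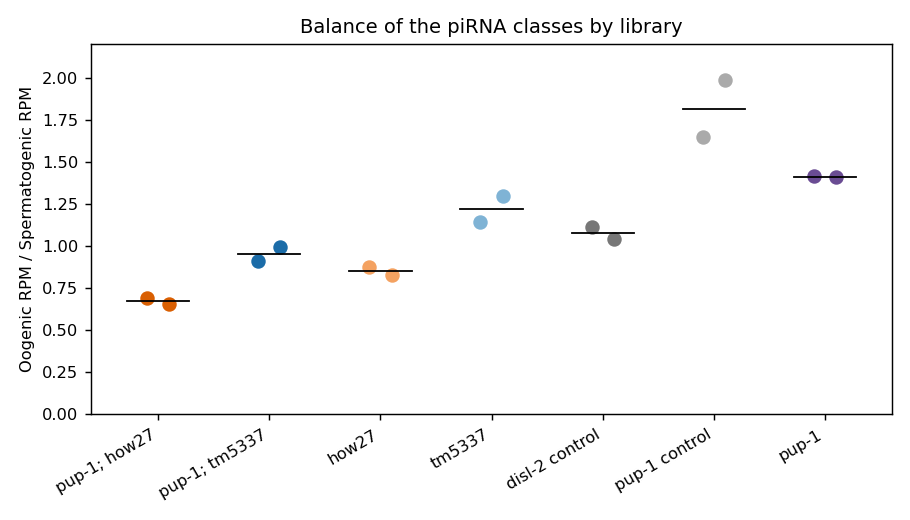
Ratio of the summed RPM of Oogenic piRNAs to that of Spermatogenic piRNAs (vertical axis, from 0) in each of 14 libraries by genotype. Points are libraries and bars are means of 2. The how27 double is lowest at 0.690 and 0.655, the tm5337 double stands at 0.910 and 0.992, and the pup-1 paired control is highest at 1.65 and 1.98.

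The largest differences that missed the threshold are extremes of the same values that gave the class medians. Their classes are therefore no separate evidence of the lean. In the tm5337 direction the 5 largest with a mean of at least 5 RPM and no overlap included 3 Oogenic piRNAs. Of all 5120 tested piRNAs, 1003 were Oogenic and 1677 Spermatogenic. 21ur-2467 stood at 3.17 and 11.4 RPM in the how27 double and at 21.8 and 13.5 RPM in the tm5337 double (log2 1.42, adjusted p = 0.341). 21ur-1641 stood at 10.9 and 19.2 RPM against 44.2 and 29.2 RPM (log2 1.28, adjusted p = 0.270), and 21ur-7135 at 7.37 and 3.87 RPM against 14.1 and 13.2 RPM (log2 1.27, adjusted p = 0.355). The others, 21ur-2953 (log2 1.38) and 21ur-4696 (log2 1.22), are in neither class. Without 1 library the difference ran from 0.57 to 2.27 for 21ur-2467 and from 0.74 to 2.02 for 21ur-2953.

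In the how27 direction the 5 largest were all Spermatogenic. 21ur-10201 stood at 10.9 and 9.45 RPM in the how27 double and at 7.39 and 3.21 RPM in the tm5337 double (log2 -0.98, adjusted p = 0.436). 21ur-1667 stood at 9.65 and 7.42 RPM against 4.87 and 3.37 RPM (log2 -0.98), and 21ur-6422 at 7.95 and 9.54 RPM against 5.26 and 3.58 RPM (log2 -0.93). These 3 were also lower in the tm5337 single than in the how27 single, by -1.55, -1.6 and -1.95, each called. So were 1195 of the 1904 Spermatogenic piRNAs tested between the singles, so this does not set them apart. 21ur-3535 (log2 -1.01) and 21ur-7112 (log2 -0.99) share reads and are uncertain. Between the singles 21ur-3535 went the other way (log2 0.93) and 21ur-7112 the same way (log2 -1.05), each called.

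The median difference between the doubles ran from -0.31 to 0.13 over the lists by position and varied little with abundance. In cluster a, the cluster nearer the left end of chromosome IV, the median difference was -0.05 over 725 tested piRNAs. Cluster b, nearer the right end, had 0.10 over 4317. Both calls lay in cluster b, which held 4317 of all 5120 tested piRNAs. Along cluster a, cut by order into 10 stretches, the median ran from -0.31 to 0.01, with the lowest value in the stretch at its right end, over 43 piRNAs. Along cluster b, cut likewise, it ran from 0.05 to 0.13. The rest of chromosome IV had a median of -0.08 over 73 piRNAs, and 5 piRNAs of other chromosomes had one of -0.05. Cluster a made up 7.73% and 7.70% of piRNA reads in the how27 double and 6.95% and 6.82% in the tm5337 double.

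Inside coding genes the median was 0.07 over 1800 piRNAs, and outside them 0.08 over 3320. With piRNAs split into quartiles by level in the isogenic control, the medians between the doubles were, in rising order of level, 0.05, 0.08, 0.07 and 0.11. Between the singles the same quartiles had medians of -0.28, -0.66, -0.89 and -0.98. After rescaling to equal medians the singles had 0.37, 0.00, -0.23 and -0.32, and the doubles -0.01, 0.02, 0.01 and 0.05. piRNAs that share reads had a median of 0.06 over 1359, and those that do not one of 0.08 over 3761.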

How the data were processed

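Per the labels' protocols, small RNAs of whole day 1 adults were sequenced after treatment with PIR-1, an RNA phosphatase. The deposited values are RPM, which the authors normalized to sequencing depth according to the title of the table. Trim Galore and Bowtie are the tools in the submitters' processing notes (no versions), and the genome build and counter are not given in the sources used here. Values were multiples of a fraction of 1 read, which gave the depth of each library, 17928105 to 52798564 reads over the 14 libraries used. Of the positive values, 86.5% to 88.0% per library were whole reads to within 0.01, the others being reads split between loci. No test that needs whole counts was therefore run, and limma voom on estimated reads served as an alternative setting. All 14581 identifiers matched a gene of the WBcel235 gene table, 14570 under the same name, which gave chromosome and neighbourhood. Another 20 libraries, of a time course, were not used, and piRNA sequences were not analysed here.

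The log2(RPM + 0.5) values, a scale that understates the change of low piRNAs, were fitted by limma (3.58.1, R 4.3.3) with a trended prior variance, for piRNAs whose mean in a fit reached 1 RPM. The doubles shared a fit with pup-1(tm1021) and its control (8 libraries), the singles with the isogenic control (6), and the difference of differences used all 14. Values were not rescaled between libraries. With 2 libraries a group the spread was largely pooled over piRNAs (24.7 prior degrees of freedom or more against 4 residual for the doubles). Nothing in the labels says that replicates are separate cultures. The p-values therefore reflect the spread among these libraries alone, and that spread may be technical. The fit was tested on simulated data. Totals were tested by exact permutation, two-sided (scipy 1.17.1).

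Members and lists were chosen with earlier results of these data known, and lists got no test. Named piRNAs are called ones with a mean of at least 5 RPM and no overlap (up to 10 each way), the 5 most abundant, 21ur-1, and the 3 largest called differences of differences each way. The 5 largest uncalled differences each way between the doubles and the 6 largest each way between the singles were added after their values were seen.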

Additional observations from a re-analysis of the deposited data

Results flagged for a closer look

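The difference between tm5337 and how27 was itself different in the doubles and the singles, by limma in 1 fit of 14 libraries. It was more positive in the doubles for 2008 piRNAs and more negative for 79, of 5369 tested. By size, 21ur-1120 (log2 4.45), 21ur-8605 (4.45) and 21ur-3676 (4.36) were the most positive of those named, and 21ur-9190 (-3.25), 21ur-375 (-2.07) and 21ur-4894 (-2.0) the most negative. The doubles also differ in their pup-1 allele, so disl-2 and pup-1 alleles cannot be told apart in these values. Groups of 2 libraries are too small for a search for single outlying libraries.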

How the results depend on the processing

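The 2 calls between the doubles were 0 with a pseudocount of 0.1 or 2 RPM, with no filter, after rescaling to equal medians, and with only the 4 double mutant libraries, and 1 in a fit of all 22 steady-state libraries. They were 2 with a mean of at least 5 RPM, by limma voom and without piRNAs that share reads. At an unadjusted p under 0.05 the number was 202 of 4606 tested with only the 4 libraries, a share below 0.05. It was 411 of 5120 in the main fit and 582 of 5120 after rescaling to equal medians. Leaving out each library gave 0 to 153 calls in the tm5337 direction and 0 to 25 in the how27 direction. The total log2 ratio ran from -0.11 to 0.20. The cause was not tested. List medians without each library were computed after seeing the data.

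Between the singles, a mean of at least 5 RPM gave 144 higher and 1719 lower in tm5337, where fewer piRNAs are tested, and rescaling gave 1364 and 1458. Leaving out each library gave 121 to 359 and 1870 to 3353. For the difference of differences the counts were 1290 and 50 with at least 5 RPM, 683 and 567 after rescaling, and 1240 to 2349 and 47 to 169 without each library. Rescaling moved the median of all differences from -0.66 to 0.00 between the singles and from 0.08 to 0.02 between the doubles.

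Replicate numbers pair nothing in the labels, and deviations of same-numbered double libraries correlated at -0.32. A replicate block left 0 calls between the doubles in both directions, with 493 at an unadjusted p under 0.05, and changed no count between the singles or in the difference of differences by over 1.5 times. A block with crossed numbers, chosen after seeing the data, gave 2 and 0.

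Among named piRNAs, leaving out 1 double mutant library turned the sign of 9 uncalled differences, with ranges of -0.56 to 0.26 for 21ur-4894, -0.21 to 0.45 for 21ur-7404, -0.65 to 0.27 for 21ur-4151, -0.14 to 0.67 for 21ur-5876, -0.81 to 0.40 for 21ur-9174, -0.98 to 0.88 for 21ur-2194, -0.49 to 0.17 for 21ur-4985, -0.91 to 1.22 for 21ur-2400 and -0.43 to 0.029 for 21ur-3787.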
